A study of Rattus norvegicus with 7 samples.

Results

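The 90 small nucleolar RNA (snoRNA) loci described here are those with a deposited locus of 100 bases or more, without SNORD115 and SNORD116, that had the highest mean level over the 7 ages of the series. They were chosen by their measured mean FPKM from 147 snoRNA loci of that length, among 379 snoRNA features outside the SNORD115 and SNORD116 clusters and 5491 features in all. Their order by mean level is therefore a description and no finding. Small RNA was sequenced on an Ion Torrent instrument from retinas of Wistar WU rats at P21, the reference age, and at 6 earlier ages, P1, P3, P5, P7, P10 and P15, where P is the postnatal day. Runs of 7 values below follow the order of age from P1 to P21. RNA of 3 retinas was pooled at each age, and the deposited table gives 1 library value per age. The pools were sequenced in 2 runs, and whether a value combines both is not given in the sources used here. No spread between animals could be calculated, no difference between ages has a replicate check, and no p-value is given. A bulk library also cannot tell fewer cells of a type from less RNA per cell.

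SnoRNAs are stable nucleolar RNAs that guide the chemical modification of other RNAs, mostly ribosomal RNA. Box C/D snoRNAs guide methylation of the ribose and box H/ACA snoRNAs guide the conversion of uridine to pseudouridine, and a few of both kinds, such as U8, U22 and SNORA73 (also called U17), are needed to cut and fold the ribosomal RNA precursor. Most mammalian snoRNAs are released from introns of host genes, many of which encode ribosomal proteins or translation factors. Box H/ACA RNAs are usually the longer kind, made of a pair of hairpins.

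Length did not select one kind of snoRNA. By their names, 61 of the 90 loci are box H/ACA RNAs and 29 are box C/D RNAs, and the 11 loci with the highest mean level are all box C/D RNAs. With P3 left out of the mean, 10 of the 11 highest are box C/D RNAs, and at P21 alone 6 of the 11 highest. The locus is the stretch that the authors' processing assigned to a feature, and its length need not be that of the annotated gene. In 25 of the 29 box C/D loci the locus was longer than the gene, and 19 of these genes are shorter than 100 bases, down to 67 bases. Of the 61 box H/ACA loci, 9 were longer and 12 shorter than the gene, and no gene was under 100 bases. Among all box H/ACA genes of 100 bases or more, 56 of 159 had a locus under 100 bases and were left out by the length rule. The 2 kinds are therefore given separately below, and the 90 together are called the long snoRNA loci. The paper names transcript estimation with Cufflinks and merging with Cuffmerge. How a locus came to exceed its gene is not stated there or in the other sources used here.

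**Figure D1:**
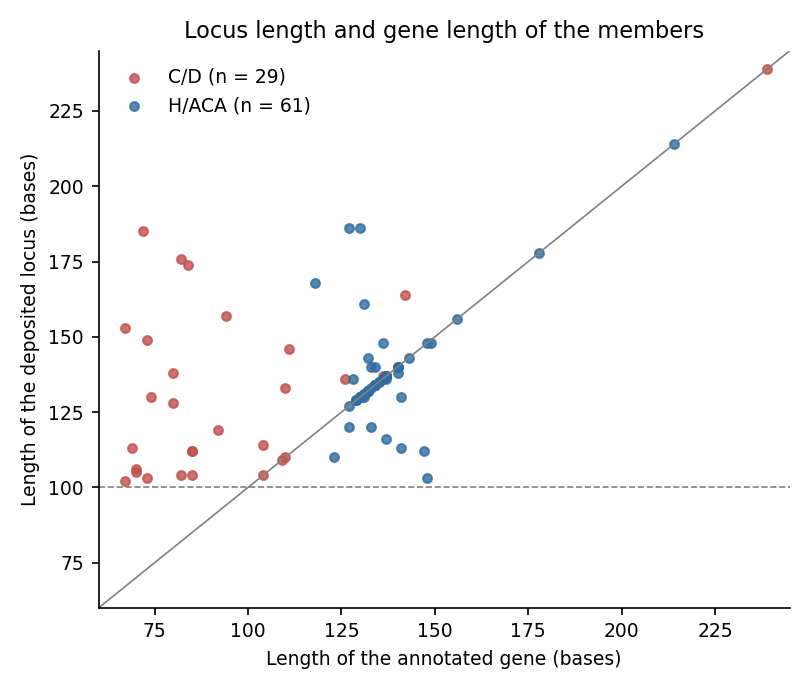
Length of the deposited locus (vertical, bases) against length of the annotated gene (horizontal, bases) for the 90 long snoRNA loci, with the line of equal length and a dashed line at 100 bases. Box C/D loci (red) lie mostly above the line of equal length, while most box H/ACA loci (blue) lie on it.

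Each value is an FPKM, the mapped fragments of a feature relative to its length and to the size of the library, so levels are compared between genes only per length. Low FPKM values fell on sums of a few fixed steps, from which the number of alignments came to an estimated 295014, 494833, 411449, 590455, 451871, 448685 and 1657274 from P1 to P21. The P15 estimate has the widest bounds, 126823 and 770547. At P1 the values fell on 1 step, from P3 to P15 on sums of 2 steps and at P21 on sums of 3. Whether the steps reflect separate runs was not tested, and P1 may differ in make-up from the later libraries. The long snoRNA loci held 1524 of these alignments at P1, 27514 at P3 and 22440 at P21, which is 0.517%, 5.56% and 1.35% of the library. Intervals below are 95% intervals of counting error and leave out variation between animals. A mean of at least 20 estimated alignments was reached by 77 of the 90 loci, 26 of them box C/D and 51 box H/ACA. In all 7 libraries 86 loci were above 0. Whole snoRNAs and fragments of them cannot be told apart in these values.

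The labelled tissue was checked with microRNAs that mark retinal cells. Mir124, abundant in neurons, summed over 3 loci to 1020254, 2933618, 5820000, 5470000, 7430000, 8530000 and 11820000 FPKM, led by Mir124-1 at P21 with 4500000. Of the photoreceptor markers 2 of 3 were matched, Mir183 and the less abundant Mir96 without Mir182, and they summed to 117463, 340198, 468004, 422918, 1015632, 741822 and 537842 FPKM. The part of cell composition in the snoRNA values was not tested. Libraries were compared as deposited and also after 2 other scalings over the microRNAs.

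Both kinds of long snoRNA were low at P1, and the box C/D loci were far higher at P3 than at either neighbouring age. The summed level of the 29 box C/D loci was 28990, 973547, 136082, 142572, 230696, 97247 and 118133 FPKM, with intervals of 26910 to 31070 at P1 and 960249 to 986845 at P3. The P3 library stands alone in this series, and P10 is the next highest. The summed level of the 61 box H/ACA loci was 23092, 77742, 34743, 52075, 38747, 52838 and 97851 FPKM, with intervals of 21327 to 24858 at P1 and 95952 to 99751 at P21. For these loci P21 was highest and P3 second as deposited, and after scaling to the microRNA total P3 was highest, with 141824 against 97851 FPKM. Box C/D loci held 92.6% of the summed level of the 90 loci at P3 and 54.7% at P21. A single locus, SNORD2, held 32.1% of the P3 sum of the 90 loci. SNORA62 held 25.4% of the box H/ACA sum at P3 and 1.46% at P21.

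**Figure D2:**
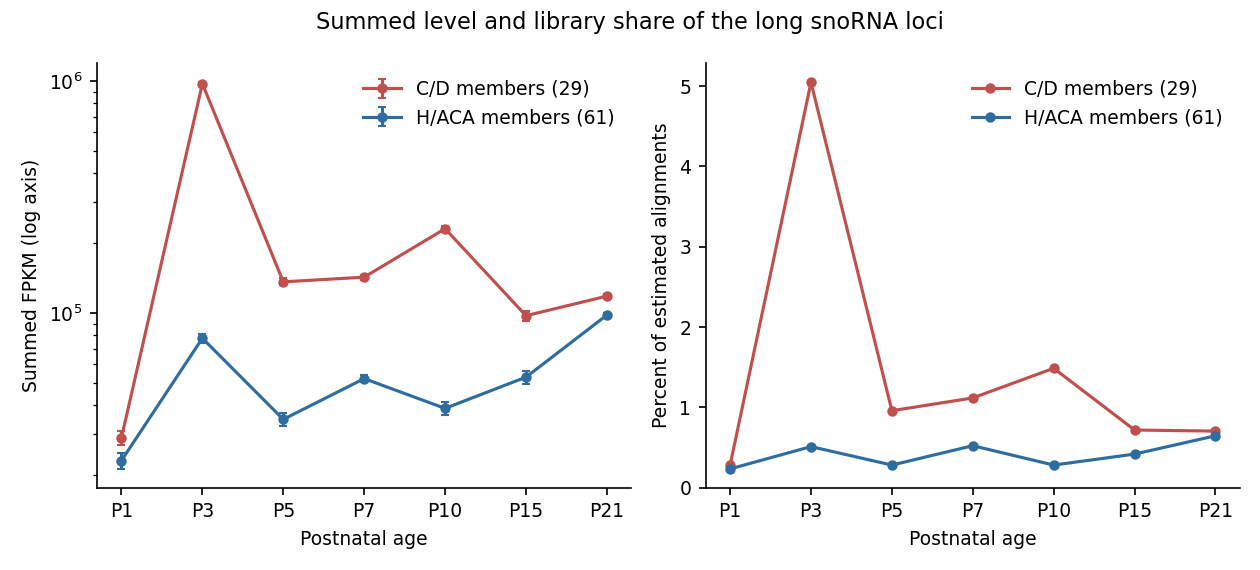
Summed FPKM on a log axis (left, bars are 95% counting intervals) and percent of all estimated alignments (right) at 7 postnatal ages for the 29 box C/D and 61 box H/ACA long snoRNA loci. The box C/D sum reaches 973547 FPKM at P3, and the box H/ACA sum is highest at P21 with 97851 FPKM as deposited but at P3 after scaling to the microRNA total.

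Locus by locus, P3 was the highest age for 44 of the 90 loci and P21 for 32, against 11.5% and 16.3% of the 5482 features with a mean of at least 10 FPKM. The 90 loci were chosen by a mean that includes both ages, which favours loci high at either. Among box C/D loci P3 was highest for 23 of 29, and among box H/ACA loci P21 was highest for 28 and P3 for 21 of 61, an order that scaling to the microRNA total turned to 15 and 30. That scaling gave P3 as the highest age for 55 and P21 for 17 of the 90 loci, against 20.4% and 7.22% of all features. With the P3 library left out, P21 was the highest age for 45 of the 90 loci, of which 37 are box H/ACA, and P10 for 18, of which 13 are box C/D, against 18.9% and 9.81% of all features. With P3 left out and scaling to the microRNA total, P21 was highest for 27 loci, P15 for 21, P7 for 20 and P10 for 16 (9.38%, 16.1%, 28.3% and 5.84% of all features), so P10 was no longer second. The counts without P3 and those of the highest age under other scalings were chosen after the data were seen. P1 was the highest age for 3 loci, SNORA57 on chromosome X, SNORA17 and SNORA38 (P3 for SNORA38 after scaling to the microRNA total), and for 24.6% of all features.

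**Figure D3:**
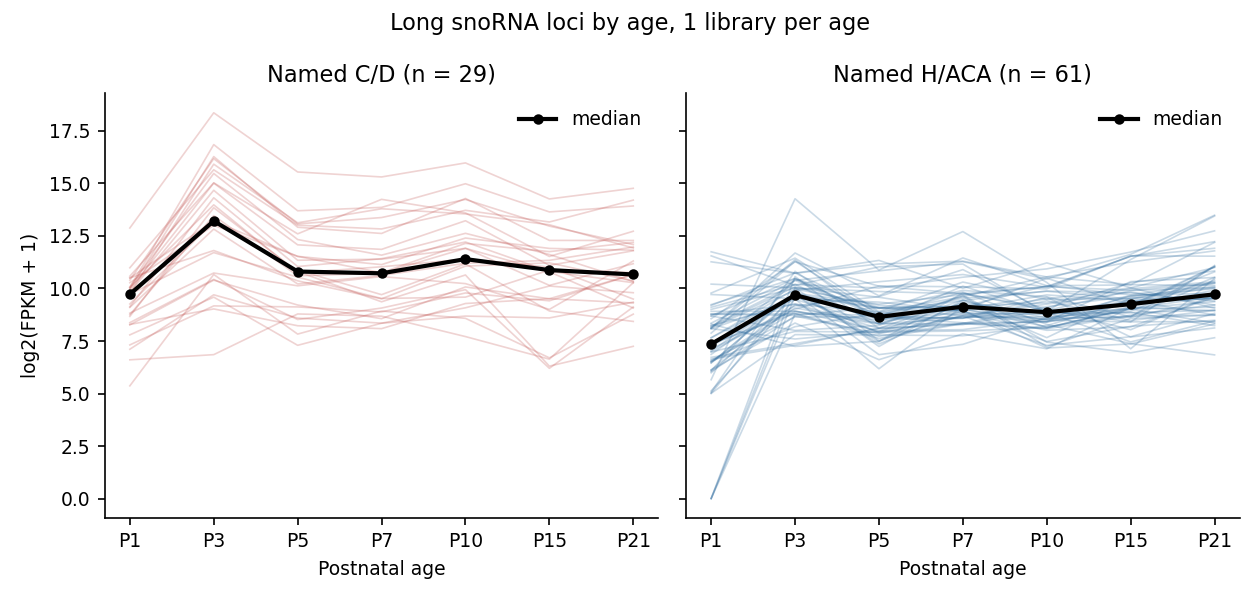
Level of each long snoRNA locus as log2(FPKM + 1) at 7 postnatal ages, with the median in black, for 29 box C/D loci (left) and 61 box H/ACA loci (right), 1 library per age. The box C/D median stands out at P3, and 4 box H/ACA loci are listed at 0 at P1.

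Against P21, 70 of the 90 long snoRNA loci were at least 2-fold lower at P1 on the log2(FPKM + 1) scale and 7 were at least 2-fold higher. Over the same 5482 features the shares were 26.4% lower and 32.5% higher, so lower values at P1 were more frequent among the long snoRNA loci than over all features. At P3, 37 loci were higher and 26 lower than at P21 (26.4% and 22.1% of all features), at P5 10 and 47 (26.6% and 21.5%), at P7 14 and 36 (32.3% and 21%), at P10 15 and 34 (21.3% and 23.3%), and at P15 4 and 24 (14.7% and 24.7%). Scaling each library to its microRNA total raised the 6 earlier ages against P21 by 0.63, 0.87, 0.58, 0.65, 0.24 and 0.48 on the log2 scale. This shift moved all 5491 features alike. With it the counts became 51 higher and 16 lower at P3 (48.5% and 11.5% of all features), 17 and 25 at P5 (40.1% and 13.3%), 23 and 18 at P7 (46.7% and 10.2%), and 13 and 16 at P15 (25.9% and 16.4%). More loci were then higher than lower at P7, yet a smaller share than among all features was higher. Median-of-ratios scaling over the microRNAs gave 7 higher and 18 lower at P15 (19.8% and 20.3%). The P1 count was 58 lower and 10 higher after scaling to the microRNA total (18.5% and 45.1%) and 70 and 6 with the median of ratios (27.4% and 31.0%).

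The median difference of the 90 loci from P21 was -2.37, 0.47, -1.11, -0.56, -0.63 and -0.45 at the 6 earlier ages in order, and after scaling to the microRNA total the sign turned at P7 (0.09) and P15 (0.03), where the medians of all features became 0.86 and 0.29. With the 4 loci at 0 at P1 set to the floor of 3 alignments, the P1 median was -2.34. For all features the medians as deposited were 0.15, 0.09, 0.09, 0.21, -0.02 and -0.17. The long snoRNA median thus lay below that of all features at each of these ages but P3, and it did so under both other scalings too. The exception at P3 depended on the members. The P3 median was 0.21 with members chosen without P3. It was 0.05 with loci of 120 bases or more, 0.00181 without loci longer than their gene and -0.07 without box C/D RNAs, all below the 0.09 of all features. Box C/D loci had medians of -1.84, 1.89, -0.23, -0.07, 0.74 and -0.44, where scaling to the microRNA total turned the sign at P5 (0.35), P7 (0.58) and P15 (0.05) and median-of-ratios scaling that at P7 (0.18). Box H/ACA loci had medians of -2.64, -0.07, -1.30, -0.62, -1.01 and -0.47, where scaling to the microRNA total turned the sign at P3 (0.80), P7 (0.03) and P15 (0.02). The low P1 medians of both kinds and the opposite signs at P10 did not depend on the scaling. The interval of P21 minus P1 lay above 0 for 66 loci, 44 box H/ACA and 22 box C/D, and below 0 for 8, against 17.5% and 31.8% of all features.

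P3 was at least 2-fold higher than both P1 and P5 for 53 of the 90 long snoRNA loci, against 9.67% of all features. These were 25 of the 29 box C/D loci and 28 of the 61 box H/ACA loci. The mean that chose the loci includes P3, which favours loci high at P3. With members chosen without P3 the count was 50 of 90. The median of P3 minus the mean of P1 and P5 was 3.44 for box C/D and 1.41 for box H/ACA loci, and no locus was 2-fold lower at P3 than at both ages. The same count was 131 of 159 for box C/D loci under 100 bases and 11 of 61 for box H/ACA loci under 100 bases, 3 of 18 for small Cajal body RNAs, 58 of 208 for spliceosomal and other small nuclear RNAs, 6 of 22 for mitochondrial transfer RNAs and 23 of 571 for microRNAs. The short box H/ACA loci had few alignments, with a median of 6.22 for their mean over the ages, and 33 of 61 were at 0 in some library. The P3 level was thus shared with the shorter box C/D loci and is not particular to long ones. Leaving out loci longer than their gene, a choice made with the values already seen, gave 27 of 56 loci.

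The P3 library also held RNA marking another tissue. The skeletal muscle list, of which 3 of 4 markers were matched (none for Mir133a) and none was at 0, summed to 7439, 165251, 100176, 4840, 11665, 7905 and 5702 FPKM. Mir206, its most abundant member, stood at 130765 FPKM at P3. P5 had high muscle marker levels too, while the long snoRNA sum at P5 was 170825 FPKM against 1051289 at P3. The share of microRNAs in the estimated alignments was 39.4% in the P3 library, and the other 6 libraries held from 58.6% to 74.6%. The part of these differences in the P3 values was not tested.

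The loci with the highest mean level were led by SNORD2, a box C/D RNA that RefSeq places in Eif4a2, a translation initiation factor gene. SNORD2 (ENSRNOG00000053621.1, chr11:81378396-81378464, minus strand, build Rnor_6.0) had 7535, 337410, 47850, 40612, 64538, 19655 and 27918 FPKM. P3 exceeded P1 by 5.48 on the log2 scale (5.26 to 5.71), and P10 was the second highest age. SNORD90 (ENSRNOG00000058017.1, chr3:21653067-21653177, minus strand), placed in Rc3h2, had 1056, 118086, 13307, 14878, 32466, 12809 and 15581 FPKM from P1 to P21. Its P3 level was 112-fold that of P1 and 8.87-fold that of P5. SNORD21, in the ribosomal protein gene Rpl5, stood at 1344 FPKM at P1, 74186 at P3 and 4360 at P21, and SNORD46 at 1003, 79526 and 4990 FPKM. For SNORD46 the P3 level was 79.3-fold that of P1, estimated from 19 alignments at P1.

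Of the other loci among the 10 highest, SNORD38, SNORD31, SNORD45, snoZ40 and SNORD36 had P3 levels between 21.8-fold and 70.3-fold those of P1. P3 counts in the mean that ranked them, so high P3 levels are partly built into this choice. Without P3, SNORD36 had rank 16. These loci differed at the end of the series. SNORD38 and SNORD31 were higher at P21 than at P1 by 2.14 each on the log2 scale, snoZ40 by 1.84, while the intervals of SNORD45 (0.26, from -0.28 to 0.79, turning to -0.37 after scaling to the microRNA total) and SNORD36 (-0.74, from -1.58 to 0.10, becoming -1.36 with that scaling) include no difference as deposited. U8 is the only one of the 10 with a role in cutting the ribosomal RNA precursor. U8 (ENSRNOG00000056054.1, chr10:55656405-55656540, plus strand) had 2027, 51463, 8258, 7304, 13515, 9185 and 18914 FPKM, and its P21 level exceeded P1 by 3.22 (2.87 to 3.58). Its locus of 137 bases is close to the gene of 136 bases.

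**Figure D4:**
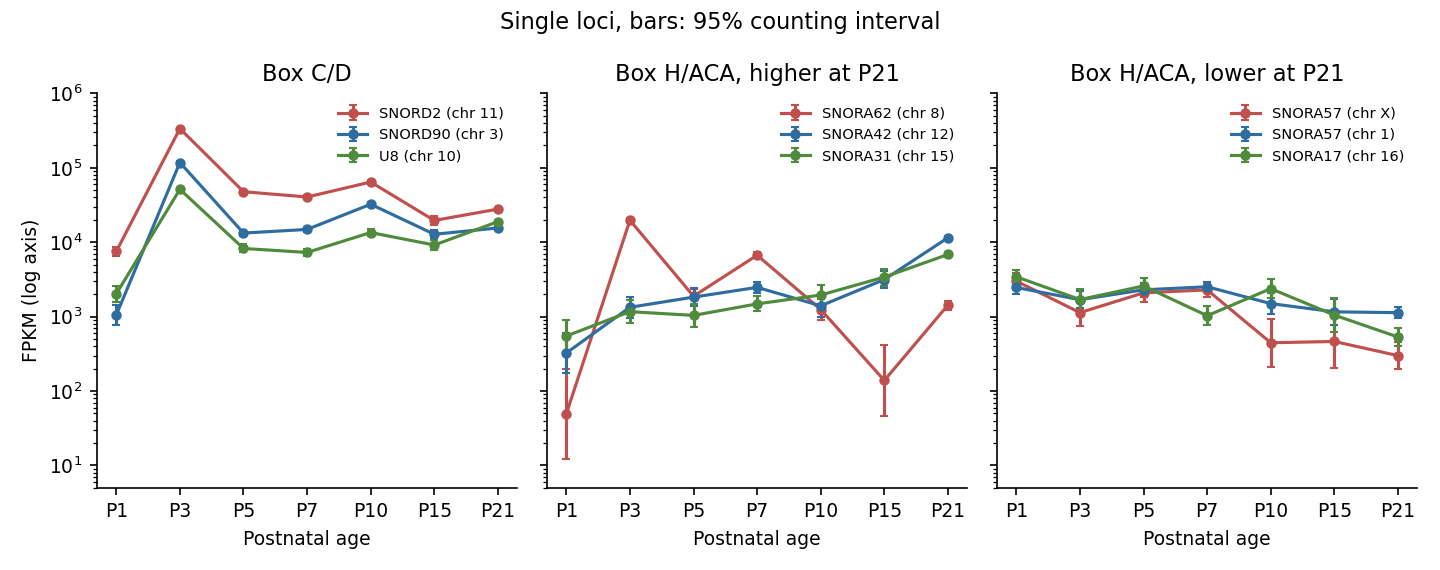
FPKM on a log axis at 7 postnatal ages for 3 box C/D loci (left), 3 box H/ACA loci higher at P21 than at P1 (middle) and 3 box H/ACA loci lower at P21 than at P1 (right), with bars for the 95% counting interval. SNORD2, SNORD90 and U8 share the P3 maximum, whereas SNORA42 and SNORA31 are highest at P21.

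SNORA62 was the box H/ACA locus with the highest mean level, which rests on P3, where its level was the highest of all 61. Without P3 its mean was 1908 FPKM, below the 3448 of SNORA42 on chromosome 12. The copy on chromosome 8 at 128807094 to 128807249 (ENSRNOG00000058283.1, plus strand) had 49.4, 19779, 1882, 6697, 1248, 139 and 1432 FPKM. P3 and P7 were high, and P1 and P15 rest on 2 and 6.41 estimated alignments. The P3 minus P1 difference was 8.62 with an interval of 6.65 to 10.58. Another SNORA62 locus in the same stretch of 1896 bases, at 128808841 to 128808989, followed another course, with 163 FPKM at P1, 451 at P3, 327 at P7 and 972 at P21. The mean levels of these loci differed 10.3-fold with P3 included. Without P3 their means were 1908 and 428 FPKM, in that order.

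The largest differences from P1 to P21 among loci above 0 at P1 and with a mean of at least 20 alignments belonged to box H/ACA RNAs. SNORA42 on chromosome 12 (ENSRNOG00000056978.1, 40881397 to 40881530, minus strand) had 325, 1337, 1831, 2478, 1399, 3157 and 11501 FPKM, a difference of 5.14 (4.25 to 6.04). The copy on chromosome 10 (ENSRNOG00000058244.1, 37600888 to 37601023, minus strand) had 126, 576, 781, 1906, 480, 2661 and 11188 FPKM, a difference of 6.46 (5.05 to 7.86). Neither copy was high at P3, and P21 was the highest age of both. Their estimated alignments at P21 were both close to 1196, and how reads were divided between such copies is not given in the sources used here. SNORA41 on chromosome 1 had 68.7 FPKM at P1, from 2 alignments, and 2086 at P21, a difference of 4.90 (2.92 to 6.88).

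SNORA35 and SNORA15 were listed at 0 at P1. SNORA35, which RefSeq places in the serotonin receptor gene Htr2c on chromosome X, had 441, 196, 321, 270, 410 and 1352 FPKM from P3 to P21. Against the floor of 3 alignments at P1 its P21 level was at least 12.9-fold higher. SNORA15 on chromosome 12 reached 1519 FPKM at P3 and lay between 182 and 429 FPKM from P5 to P21, which at P21 is at least 6.11-fold above its floor at P1. The other loci at 0 at P1 were a SNORA2 copy on chromosome 7 and the SNORA19 copy on chromosome 1, both with under 20 estimated alignments on average.

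Lower levels at P21 than at P1 were seen in few loci. SNORA57 on chromosome X (ENSRNOG00000057375.1, 106471671 to 106471811, plus strand) had 3005, 1133, 2090, 2292, 446, 464 and 299 FPKM, a difference of -3.32 (-4.01 to -2.63). The first 4 ages were all above the last 3. Its copy on chromosome 1 had 2468 FPKM at P1, 2523 at P7 and 1131 at P21, a difference of -1.12 (-1.50 to -0.74). SNORA17 on chromosome 16 had 3436, 1699, 2586, 1030, 2382, 1049 and 533 FPKM, a difference of -2.69 (-3.21 to -2.17). SNORA38 on chromosome 20 differed by -1.23 (-1.92 to -0.53). SNORD123, a box C/D locus, differed by -1.42 (-2.76 to -0.09). Its level was 407 FPKM at P1, 14696 at P3 and 151 at P21, and the P1 and P21 values rest on 8 and 10 estimated alignments. SNORA57 on chromosome X, SNORA17, SNORA57 on chromosome 1, SNORA73 on chromosome 5 and snopsi28S-3327 also had the smallest P3 values against P1 and P5, from -1.14 to -0.46, among the 77 loci with a mean of at least 20 alignments. Of these 5, all but snopsi28S-3327 were lower at P21 than at P1, and the P21 minus P1 signs of all 5 were the same under both other scalings. Of the 8 loci with an interval of P21 minus P1 below 0, the 6 box H/ACA loci were highest at P1 or P7 as deposited and the 2 box C/D loci, SNORD123 and SNORD34, at P3.

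**Figure D5:**
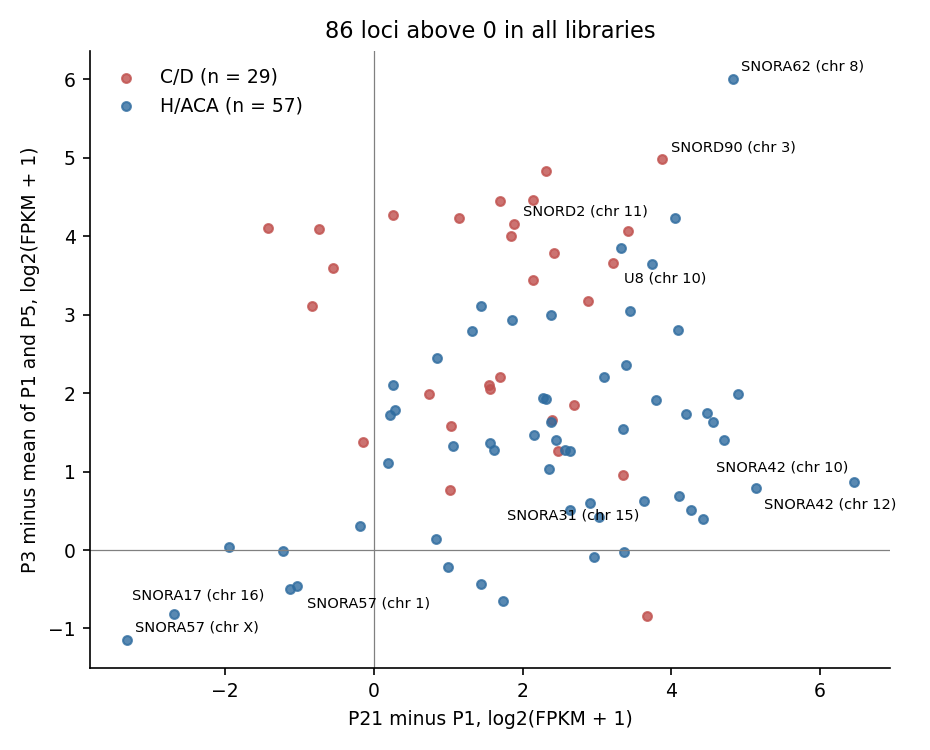
P3 minus the mean of P1 and P5 (vertical) against P21 minus P1 (horizontal), both as differences of log2(FPKM + 1), for the 86 loci above 0 in all libraries. Most box C/D loci (red) lie high on the vertical axis, SNORA42 lies far to the right near 0.8 on the vertical axis, and SNORA57 and SNORA17 lie at the lower left.

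RNAs that act in processing of the ribosomal RNA precursor did not share one course. U8 was described above. SNORD22 (U22) had 158, 575, 556, 471, 883, 681 and 1624 FPKM, with no maximum at P3. SNORA73 (U17) on chromosome 5 had 412, 256, 301, 821, 173, 121 and 201 FPKM, so P7 was highest and P21 lay below P1 by a difference of -1.03 (-1.71 to -0.36). No locus named U3 or U13, and none named SNORA70 or SNORA74, was among the 90. Of the listed pseudouridine guides, SNORA31 on chromosome 15, placed in Tpt1, had 550, 1167, 1040, 1485, 1954, 3406 and 6858 FPKM. Its level was higher at each age than at P1, and its copy on chromosome 3 had 87.0 FPKM at P1 and 1219 at P21. SNORA64, in the ribosomal protein gene Rps2, had 162 FPKM at P1 and 1019 at P21, and the SNORA7 loci on chromosomes 6 and 4 had 150 and 270 FPKM at P1 and 787 and 832 at P21.

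Related RNAs outside the 90 were set beside them. Telomerase RNA (Terc) carries a box H/ACA domain. It had 257, 120, 203, 317, 141, 101 and 65.9 FPKM, a difference from P1 to P21 of -1.95. Small Cajal body RNAs, which guide modification of spliceosomal RNAs, had a summed level of 8011 FPKM at P1, 33736 at P3 and 18510 at P21 over 18 loci, of which SCARNA18 made 24956 at P3. SCARNA2 had 798 FPKM at P1 and 360 at P21, whereas SCARNA18 had 636 and 10177. Of the 18 loci, 10 were at least 2-fold lower at P1 than at P21 and 4 higher (26.4% and 32.5% of all features). After scaling to the microRNA total the counts were 5 and 5 (18.5% and 45.1%).

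Several loci share a host gene or a neighbourhood. Names and chromosomes matched 23 of the 90 loci to RefSeq snoRNA genes of the GRCr8 assembly, and 20 of these lie within a protein-coding gene, 18 such genes in all. Genes were placed by position only and strands were not compared, so a gene named here need not be the host. Rpl5 contains SNORD21 and a pair of SNORA66 loci. The SNORA66 loci had 234 and 601 FPKM at P1, 2513 and 1427 at P3, and 1220 and 1253 at P21, so their P3 difference from P1 and P5 was 2.99 and 1.32 where that of SNORD21 was 4.44. In the deposited coordinates, 41 of the 90 loci lie within 5000 bases of another snoRNA on the same strand, in 25 groups. Near Eif4a2 on chromosome 11, SNORD2, SNORA81 and SNORA4 lie within 3219 bases. Their P3 differences were 4.15, 1.92 and 1.11, and P21 minus P1 was 1.89, 2.32 and 0.19, the last with an interval that includes 0. On chromosome 1, SNORD31 had a P3 difference of 3.44 and its neighbour SNORD22 one of 0.95. On chromosome 10, SNORD10, in the translation initiation factor gene Eif4a1, and SNORA48 had 2538 and 2127 FPKM at P21, the highest age of both as deposited and of SNORA48 under each scaling, while SNORD10 was highest at P3 after scaling to the microRNA total. Nearby loci in these groups thus did not always share a course. Host gene transcripts were not analysed here.

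Loci of one symbol can share reads, which makes the split between copies uncertain. Of the 90 loci 34 share a symbol with another of the 90, in 16 symbols, all box H/ACA. Box C/D loci such as SNORD45, SNORD36 and SNORD38 share a symbol with neighbouring loci outside the 90. Summed over its copies, SNORA3 had 1431 FPKM at P1, 8731 at P3 and 6486 at P21, SNORA31 had 637, 2041 and 8077, and SNORA57 had 5473, 2825 and 1431. Copies of SNORA57 were both lower at P21 than at P1. Every copy of the other symbols shared within the 90 had a higher value at P21 as deposited. One SNORA3 copy on chromosome 1, with a difference of 0.25 (-0.37 to 0.87), turned to -0.37 after scaling to the microRNA total.

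For 11 loci another deposited feature overlaps on the same strand, in 7 cases a microRNA feature. SNORA36 on chromosome 13 (103192513 to 103192644, plus strand) had 434, 606, 471, 780, 1504, 2454 and 3543 FPKM, a difference of 3.03 (2.23 to 3.82). The gene of Mir664-2 lies inside it, and the deposited locus of that microRNA covers bases 38 to 59 of its hairpin, which are the bases of mature rno-miR-664-3p in RefSeq (GRCr8). SNORA19 on chromosome 19 overlaps Mir3084a, whose deposited locus is the whole hairpin of 67 bases. These mature sequences are printed because they are the products annotated inside a snoRNA of the set, 5′ to 3′, with the seed, bases 2 to 8, in capitals.
rno-miR-664-3p: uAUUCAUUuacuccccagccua
rno-miR-3084a-3p: uUCUGCCAguccccuucagaca
The 2 seeds differ. Mir664-2 was listed at 0 at P1, P3 and P5 and then had 1415, 4962, 10248 and 19288 FPKM from P7 to P21, but these values rest on 1.24, 2.57, 5.82 and 32.5 estimated alignments over 22 bases. Against the floor at P1, P21 was at least 3.21-fold higher. Mir3084a was listed at 0 at P1 and had 1359 FPKM at P3, 1432 at P7 and 251 at P21. Alignments of the overlapping features cannot be told apart. SNORA36, SNORA3, SNORD20, Snora58, SNORA81 and SNORA19 were named here after their overlaps were seen. Also snopsi28S-3327 with SNORA16, and SNORA50 with SNORA76, overlap each other over most of their length.

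At the lower end of the selection, the mean levels were 326 FPKM for SNORA73 on chromosome 5, 326 for SNORA19 on chromosome 19 and 322 for SNORA19 on chromosome 1. The first loci outside were SNORA55 with 318, SNORA41 on chromosome 9 with 308 and a SNORA73 locus on chromosome 8 with 295 FPKM. Among the 57 long loci outside the 90, P3 was at least 2-fold higher than P1 and P5 in 25.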

How the data were processed

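The 7 small RNA libraries of Wistar WU retina each came from RNA pooled from 3 retinas. The authors mapped the reads to Ensembl noncoding RNAs, estimated transcript levels with Cufflinks and merged the results with Cuffmerge. They deposited FPKM values from Cuffdiff (2.2.1.3 with build Rnor_6.0 in the submitters' processing notes). Each feature's FPKM is the same in all 21 pairs of ages, so 1 value per age was used. The deposited fold changes, p-values and q-values of these pairs were not used. The normalization between libraries is not given in the sources used here.

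Levels were compared as log2(FPKM + 1), and with 1 library per age no test was made. Members and lists were chosen with earlier results of these data known. At P1, 99.5% of 4500 values under 200 alignments were whole multiples of the value of 1 alignment (within 0.02). In later libraries 99.9% to 100% of low values, after rounding, fell on sums of 2 or 3 steps (within 0.003 alignments), which were assumed to carry equal signal. The floor was 3 alignments.

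Named loci were the 10 highest by mean FPKM, the 5 largest and smallest differences from P1 to P21 and of P3 against the mean of P1 and P5 (only loci averaging 20 or more estimated alignments), the listed RNAs (U3, U8, U13, U22, SNORA7, SNORA31, SNORA64, SNORA70, SNORA73, SNORA74, telomerase RNA and small Cajal body RNAs), ranks 88 to 93, and loci at 0. Others were chosen after their values were seen. Alternatives were 2 scalings over the microRNAs, pseudocounts of 0.1 and 10, folds of 1.5 and 4, and other member sets. Median-of-ratios scaling shifted the ages before P21 by -0.08, -0.04, -0.13, 0.25, -0.01 and 0.24 on the log2 scale. Python 3.11.15, numpy 2.4.6, pandas 2.3.3, scipy 1.17.1 and matplotlib 3.10.9 were used. The host gene of 1 locus is not reported here.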

Additional observations from a re-analysis of the deposited data

How the results depend on the processing

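No paired analysis was possible because there is 1 library per age and no test. The ratio of the summed levels was 20.2 for P3 over P1 and 4.15 for P21 over P1. Scaling to the microRNA total gave 23.9 and 2.69, and loci of 120 bases or more 13.6 and 4.73. For P3 over P1 the 45 highest loci gave 23.1, leaving out box C/D RNAs 3.37, leaving out the highest locus 16, and leaving out loci longer than their gene, chosen after the data were seen, 6.54. The median differences from P21 under the microRNA total were -1.74 (P1), 1.34 (P3) and -0.53 (P5), and the sign turned at P7 (0.0925) and P15 (0.0321). Median-of-ratios scaling gave -0.21 at P15. The 45 highest loci gave 1.19 at P3, -0.66 at P5 and -0.16 at P10, and leaving out box C/D RNAs -1.01 at P10. Leaving out loci longer than their gene gave -1.34 at P5 and -0.96 at P10. Against the mean over the ages in place of P21, the medians were -1.56 (P1) and -0.29 (P5), and the sign turned at P7 (0.00501), P10 (0.205) and P15 (0.0789). The P3 median of 0.47 became 0.21 with members chosen without P3, 0.05 with loci of 120 bases or more and 0.00181 without loci longer than their gene, and its sign turned without box C/D RNAs (-0.07). The count of loci 2-fold higher at P3, 53 against 9.67% of all features, became 27 of 56 without loci longer than their gene. With a fold of 4 it became 28, which is not compared with all features because no share at that fold is given here. The other medians, 61 of 78 with these at P3 among them, stayed within the spread of the median over the loci, which is no spread between replicates. Of the rest, 8 of 16 ratios, 6 of 8 counts at P3 and 3 of 3 counts of loci lower at P1 than at P21 stayed within their counting interval or 1.5-fold. Of 58 differences of single loci 9 left their interval, and the sign of SNORD45 turned from 0.26 to -0.37 under the microRNA total. The causes of these differences were not tested. Counting intervals leave out variation between animals and between libraries.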

Other observations

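Other marker microRNAs were summed at each age. From P1 to P21 in order of age, the pigment epithelium and Mueller glia markers, 2 of 2 matched and led by Mir204, had 87709, 168716, 154026, 141125, 287111, 455449 and 483914 FPKM. The vessel markers, 3 of 3 matched and led at P21 by Mir145, had 77356, 58959, 70734, 21511, 73858, 128087 and 132175 FPKM. For blood 3 of 4 markers were matched, without Mir486 and led by Mir451a, with 18257, 4610, 9992, 4982, 14434, 8062 and 14017 FPKM. Their part in the snoRNA values was not tested.

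Outside the snoRNAs, mitochondrial transfer RNAs were also low at P1, with a summed level of 267232 FPKM at P1, 2009509 at P3, 912141 at P5 and 1940269 at P21 over 22 loci, and a median difference of P1 from P21 of -2.98. The median difference of P1 from P21 was 0.52 for 109 ribosomal RNA features, -0.23 for 224 features annotated as miscellaneous RNA, -1.66 for 208 small nuclear RNA features and 0.05 for 571 microRNA features. Box C/D snoRNAs under 100 bases had a median difference of -1.81 at P1 and 3.16 at P3, close to the -1.84 and above the 1.89 of the long box C/D loci.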
